A study of Mus musculus with 4 samples.

Results

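The aminoacyl-tRNA synthetases are the enzymes that load each amino acid onto its tRNA, and 34 genes of this family, of 28137 gene names on the array, are described here in miR-223 knockout granulocyte cultures. The members were chosen by name: 20 encode enzymes of the cytosol and 14, with symbols ending in 2, encode enzymes of mitochondria. Each was read from its probe with the highest mean signal over the 4 arrays. RNA came from bone marrow of male C57BL/6 mice cultured for 4 days with 40 ng/ml of the growth factor GM-CSF, from which expanding immature granulocytes were sorted. There were 2 arrays of the genotype miR-223 KO, which lacks the myeloid microRNA miR-223, and 2 arrays of wild type. The labels do not say how the deletion was made, or whether the arrays of a genotype came from separate mice, so p-values measure only the spread between these samples.

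Each synthetase joins 1 amino acid to its matching tRNAs at the cost of ATP, and several also edit out wrongly loaded amino acids. In animal cells part of the cytosolic enzymes are held in a multisynthetase complex by the scaffold proteins Aimp1, Aimp2 and Eef1e1. Mitochondria translate their own small genome with a separate set of enzymes, which are encoded in the nucleus and imported, while Gars and Kars each supply both compartments. When uncharged tRNA builds up, the kinase Eif2ak4 (GCN2) phosphorylates the initiation factor eIF2 alpha, and the transcription factor Atf4 then raises genes of amino acid supply, cytosolic synthetases among them.

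Levels are given as the log2 intensity minus the 75th percentile of the same array, and differences as knockout minus wild type. The knockout arrays had 62.2% and 63.1% of 43379 spots well above background, and the wild-type arrays 63.6% and 57.8%. Over the 16579 tested genes, the knockout arrays correlated with each other at 0.994 and the wild-type arrays at 0.99. Arrays of different genotype correlated at 0.985 to 0.991. No probe on the array measures miR-223 itself, so the genotype was not checked from its target. Of 13 immature granulocyte markers, 11 were on the array, and all of these were well above background on every array, with a summed level of 3884 and 4254 times the 75th percentile on the knockout arrays, against 3658 and 3813 on the wild-type arrays. Among them Ngp, Csf3r and S100a8 had log2 differences of 0.49, 0.44 and 0.26, and Mpo one of -0.43. Markers of other cells were present at lower sums and differed between the arrays. The 10 macrophage markers summed to 30.4 and 33.5 on the knockout arrays and to 32.0 and 40.8 on the wild-type arrays, with 9 of 10 lower in the knockout, at a median log2 difference of -1.14. Mertk at -2.04, Fn1 at -1.91, Msr1 at -1.28 and Mrc1 at -1.17 had the smallest p-values of that list. Adgre1 went the other way, at 0.75 without overlap, while Csf1r at -0.17 and Cd68 at -0.09 overlapped between the genotypes. The 6 mast cell and basophil markers were Cpa3, Gata2, Ms4a2, Fcer1a, Kit and Mcpt8. They summed to 15.0 and 5.52 on the knockout arrays and to 21.5 and 21.9 on the wild-type arrays. Their median log2 difference was -1.31, with 5 of 6 lower in the knockout. The 6 dendritic cell markers were Flt3, Itgax, H2-Ab1, H2-Aa, Cd74 and Siglech. They summed to 173.0 and 116.0 on the knockout arrays and to 166.0 and 178.9 on the wild-type arrays. All 6 had a lower mean in the knockout, at a median log2 difference of -0.44. In bulk RNA, fewer cells of a type and less RNA per cell cannot be told apart, and the part of these markers in the differences below was not tested.

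The microRNA that the knockout lacks is shown first, from RefSeq (GRCm38.p6), with its seed in capitals, since targets are recognised through the seed.
mmu-miR-223-3p: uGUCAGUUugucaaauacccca
It lies on the X chromosome at chrX:96242884-96242905, on the plus strand. The 7-base match to this seed, AACTGAC, was found in 0 of the 67 probe sequences of the members and in 56 of 16579 probes of all tested genes (0.338%), which says only that these letters are not in the short windows the array reads.

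The probes behind the largest difference and the brightest member are shown as the first 30 bases each carries, in lower case because no part is marked, with positions in mm9, the build of the array files.
Wars, main probe: aggccagagcagtgtgctggccatgcctca
Wars, second probe: aaccaagtgaaaggcattttcggctttacg
Lars2, its 1 probe: acgtcgctttttgatccttcgatgtcggct
The main Wars probe was placed at chr12:110098448-110098507 and the second at chr12:110104496-110105932, a span wide enough to cross at least 1 intron, both on the minus strand and both assigned to the same Wars transcript. The Lars2 probe was placed at chr9:123371116-123371175 on the plus strand, but its annotation in the array files also lists the 28S ribosomal RNA. Exon and UTR positions in mm9 were not used here.

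Promoters were searched because Atf4 acts on several synthetase genes through a C/EBP-ATF element. RefSeq promoter sequences, from 250 bases before to 50 after the gene start in GRCm38.p6, matched 13 of the 20 cytosolic and 13 of the 14 mitochondrial genes. Cars, Hars, Lars, Nars, Rars, Vars, Wars and Pars2 were not matched. The element TGATGNAA, on either strand, was in 5 of the 13 cytosolic promoters (38.5%: Aars, Gars, Iars, Tars and Yars), in 0 of the 13 mitochondrial promoters, and in 1219 of 27025 genes' promoters overall (4.51%). Of integrated stress response genes, 9 of 27 promoters held it (33.3%), among them Asns, Atf3, Chac1 and Trib3. The stricter form TGATGCAA, which TGATGNAA includes, was in 4 cytosolic promoters (Aars, Iars, Tars and Yars) and in 1.03% of all genes' promoters. The windows of 2 genes, on the gene's strand, show the element in capitals as its reverse complement.
Gars: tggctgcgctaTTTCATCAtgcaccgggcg
Tars: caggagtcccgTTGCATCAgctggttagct
These lie at chr6:55037960-55037989 (plus strand) and chr15:11399655-11399684 (minus strand), with the element starting 30 and 15 bases before the gene start. A match is a description of sequence, and binding was not measured.

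None of the 34 synthetase genes passed the test between knockout and wild type (limma, Benjamini-Hochberg adjusted p under 0.05 over 16579 tested genes). Of all tested genes, 0 passed as well, or 0%, with the smallest adjusted p at 0.0593. All 34 members were well above background on all 4 arrays, so none was lost to the filter on dim probes. At an unadjusted p under 0.05, 1 member was higher in the knockout (Wars) and 0 were lower, against 7.97% of all tested genes higher (1322) and 5.6% lower (928). The genotypes did not overlap, with the knockout higher, for 3 members (Wars, Qars and Lars2), against 27.8% of all tested genes, and with the knockout lower for 8 members, against 20.3%. The median log2 difference was -0.04 over the 34 members and 0.03 over all tested genes, and 28 members lay within 0.25 of no difference. The 95% intervals reached 0.32 to 0.64 to each side and, for 33 of 34 members, stayed between -1 and 1, so a 2-fold change lay outside the interval for all but Mars2.

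**Figure D1:**
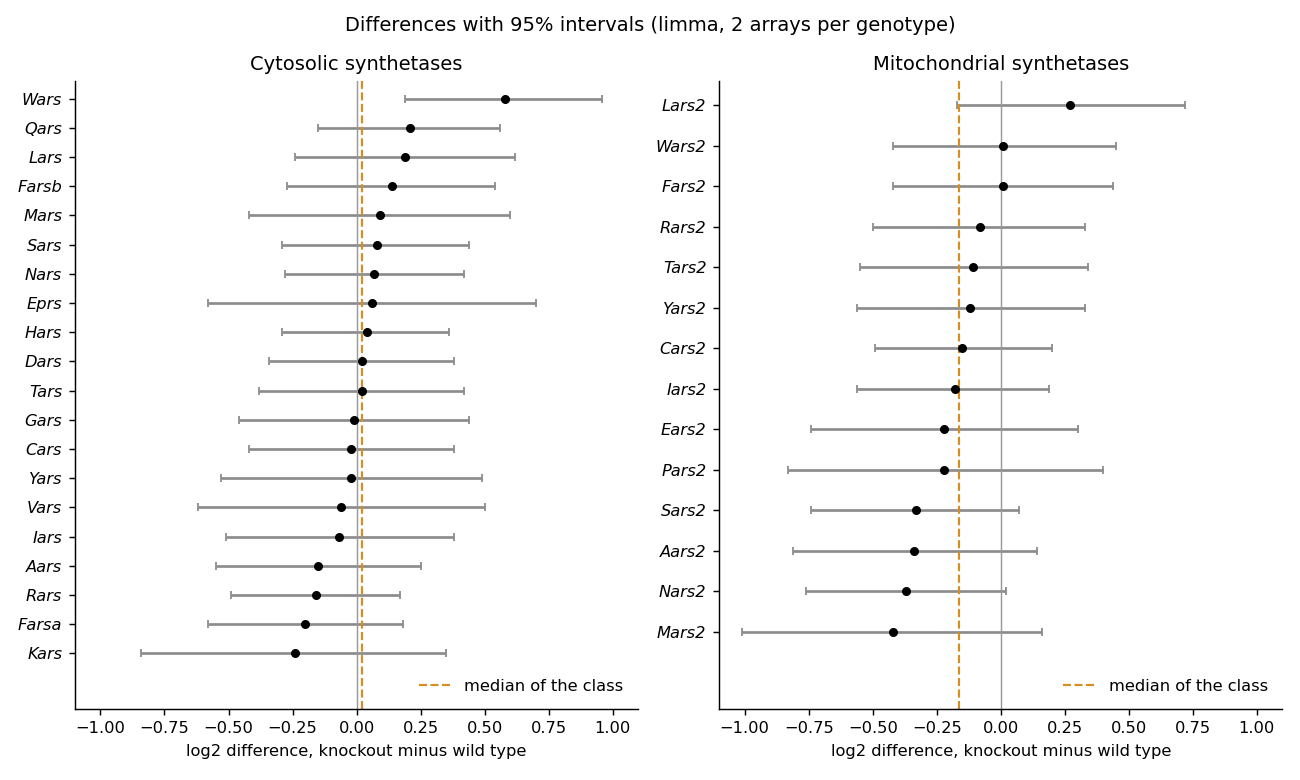
Log2 difference, knockout minus wild type, of each cytosolic (left) and mitochondrial (right) synthetase, with 95% intervals from limma on 2 arrays per genotype; dashed lines mark the class medians. Only the Wars interval, 0.19 to 0.96, leaves out 0, and 11 of 14 mitochondrial genes lie below 0.

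Wars, which encodes the cytosolic tryptophanyl-tRNA synthetase and is known in other settings as an interferon gamma-induced gene, had the largest difference of the family. Its log2 level was 2.24 and 2.13 on the knockout arrays, against 1.72 and 1.5 on the wild-type arrays. Both knockout values stood above both wild-type values. The difference of 0.58 ± 0.14 (SE, n = 2 each) corresponds to 1.49-fold, with an unadjusted p of 0.0131 and an adjusted p of 0.278 in limma. The second Wars probe read -0.49 and -0.56 in the knockout and -1.02 and -0.96 in wild type, a difference of 0.46 in the same direction. Its mitochondrial counterpart Wars2 read -3.36 and -3.45 in the knockout and -3.26 and -3.58 in wild type, a difference of 0.01 ± 0.16.

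Of 10 interferon gamma genes, 0 passed the test, 3 were higher in the knockout and 7 lower, with a median log2 difference of -0.15. Gbp3, a guanylate-binding protein, was at -0.59 ± 0.21 (SE, unadjusted p = 0.0448, limma adjusted p = 0.358), and Tap1, a peptide transporter of antigen presentation, at -0.49 ± 0.20. The chemokine gene Cxcl10 was at -0.47 ± 0.35. The interferon gamma genes and Wars thus had differences of opposite sign in 7 of 10 cases.

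The 20 cytosolic enzymes, Wars included, were 11 higher and 9 lower in the knockout, and without Wars 10 higher and 9 lower. Their median log2 difference was 0.02 with or without Wars, against 0.03 for all tested genes. Under spike-in scaling, which moved the median of all tested genes by -0.119 to -0.09, the cytosolic median was -0.10, and leaving out 1 array gave -0.11 to 0.10, so that its sign is not settled. Qars, glutaminyl-tRNA synthetase, came next after Wars among the cytosolic genes that were higher in the knockout. It read 4.30 and 4.16 in the knockout, against 3.97 and 4.07 in wild type, and the groups did not overlap. The difference was 0.21 ± 0.13 (SE, n = 2 each, limma adjusted p = 0.548), and 0.13 to 0.28 with 1 array left out. A second Qars probe gave the other sign, at 1.66 and 1.64 in the knockout and 1.85 and 1.73 in wild type, a difference of -0.14, also without overlap.

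The 8 enzymes of the multisynthetase complex had 5 higher and 3 lower values and a median of 0.04. That median changed sign with 1 array left out (-0.10 to 0.11) and was -0.08 under spike-in scaling. Qars at 0.21, Lars (leucine) at 0.19, Mars (methionine) at 0.09, Eprs (the fused glutamate and proline enzyme) at 0.06 and Dars (aspartate) at 0.02 were above 0. Iars (isoleucine) at -0.07, Rars (arginine) at -0.16 and Kars (lysine) at -0.24 were below. Eprs had the largest SE of the family, at 0.24. It read 1.93 and 1.38 on the knockout arrays, against 1.72 and 1.47 on the wild-type arrays. Kars, which also supplies mitochondria, read 2.56 and 2.37 in the knockout and 2.98 and 2.45 in wild type, so its difference of -0.24 ± 0.22 rests on the first wild-type array, and without that array it was 0.02.

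Apart from Wars, the enzymes outside the complex were as close to wild type. Farsb and Farsa, the beta and alpha subunits of the phenylalanine enzyme, differed by 0.14 and -0.20, so that subunits of 1 enzyme lay on opposite sides of 0. Farsa read 2.95 and 2.84 in the knockout, against 3.20 and 2.99 in wild type, without overlap, and all 3 of its probes were lower in the knockout. Rars, an enzyme of the complex, was the other cytosolic gene that was lower without overlap, at -0.60 and -0.61 against -0.39 and -0.49. Sars (serine) at 0.08, Nars (asparagine) at 0.07, Hars (histidine) at 0.04 and Tars (threonine) at 0.02 were slightly above wild type. Gars (glycine) at -0.01, Cars (cysteine) and Yars (tyrosine) at -0.02 each, Vars (valine) at -0.06 and Aars (alanine) at -0.15 were slightly below. By the fold of the catalytic domain, the 9 class I enzymes had a median of -0.02 and the 10 class II enzymes one of 0.02. The 5 cytosolic genes with the promoter element had a median of -0.02.

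**Figure D2:**
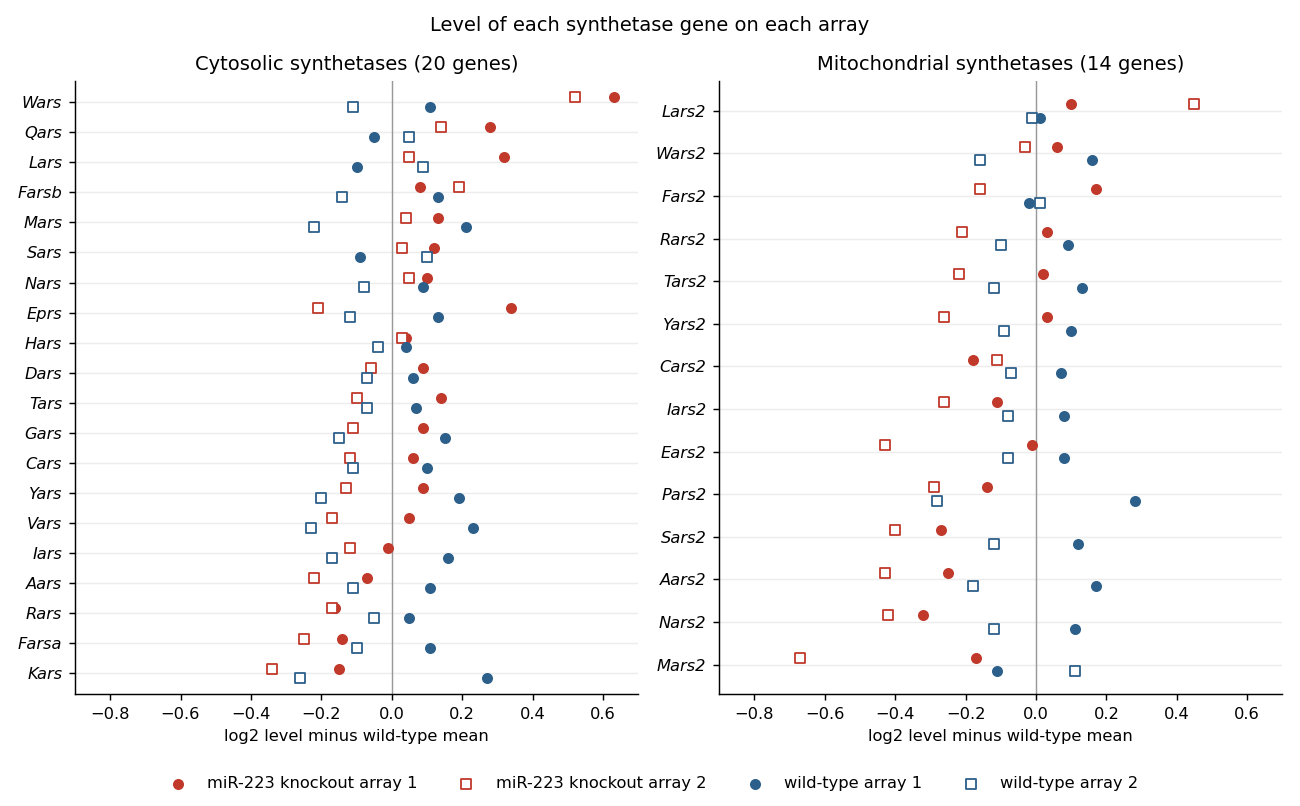
Log2 level of each cytosolic (left) and mitochondrial (right) synthetase on each array, minus its wild-type mean; red marks the knockout arrays (drawn above) and blue the wild-type arrays, filled circles array 1 and open squares array 2. The knockout marks of Wars stand apart to the right, those of Nars2, Sars2 and Aars2 to the left, and the first wild-type array is the highest of the 4 for 21 of 34 genes.

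The mitochondrial enzymes were lower in the knockout in 11 of 14 cases, each by a small amount and none past the test. Their median log2 difference was -0.17, against 0.02 for the cytosolic enzymes and 0.03 for all tested genes, whose 25th and 75th percentiles were -0.15 and 0.22. The knockout was lower without overlap in 6 of 14, against 20.3% of all tested genes, and higher without overlap in 1 (Lars2). Without the first wild-type array the median was -0.05, and without the second knockout array -0.06. Under spike-in scaling it was -0.28, with that of all tested genes at -0.09.

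Mars2, the methionine enzyme of mitochondria, had the lowest value. It read -1.79 and -2.29 on the knockout arrays, against -1.73 and -1.51 on the wild-type arrays. Array 2 of the knockout stood well below the others, while array 1 lay just under the nearer wild-type array. The difference was -0.42 ± 0.22 (SE, n = 2 each, limma adjusted p = 0.472), and without the second knockout array it was -0.17.

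Nars2, which charges asparagine, read -2.62 and -2.72 in the knockout, against -2.19 and -2.42 in wild type. The groups were apart, with a difference of -0.37 ± 0.14 (SE, n = 2 each, unadjusted p = 0.0581, limma adjusted p = 0.383). A second, much dimmer Nars2 probe was not in the test. Sars2, which charges serine, read -0.24 and -0.37 in the knockout and 0.15 and -0.09 in wild type. Its difference was -0.33 ± 0.15 (SE, n = 2 each, limma adjusted p = 0.424), again without overlap, and -0.21 without the first wild-type array. Aars2, the alanine enzyme, read -0.21 and -0.39 in the knockout, against 0.21 and -0.14 in wild type, a difference of -0.34 ± 0.18 (SE, n = 2 each, limma adjusted p = 0.479). It was -0.16 without the first wild-type array and -0.51 without the second. Iars2 (isoleucine) at -0.18 and Cars2 (cysteine) at -0.15 were also apart. Second probes of both read the other way, at 0.68 for a dim Iars2 probe and 0.03 for Cars2.

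The remaining mitochondrial enzymes overlapped between the genotypes. Ears2 (glutamate) and Pars2 (proline) were at -0.22 each, Yars2 (tyrosine) at -0.12, Tars2 (threonine) at -0.11 and Rars2 (arginine) at -0.08. Fars2 (phenylalanine) and Wars2 (tryptophan) were at 0.01 each. Further synthetase genes of the array, mitochondrial Hars2 and Vars2 and the threonyl-tRNA synthetase-like Tarsl2, were added after the data were seen. They differed by -0.13, -0.05 and -0.11 in that order, and none passed the test.

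Lars2, annotated as the mitochondrial leucine enzyme, went the other way. Its probe read 9.36 and 9.71 in the knockout, against 9.27 and 9.25 in wild type, a difference of 0.27 ± 0.17 (SE, n = 2 each, limma adjusted p = 0.532). It was 0.10 without the second knockout array, 0.45 without the first, and 0.06 under quantile normalization. The signal was 337655 and 413386 intensity units on the knockout arrays and 362263 and 295878 on the wild-type arrays. That ranks between 7th and 19th of 41150 probes. Because the probe is also annotated to the 28S ribosomal RNA, the share of this signal that comes from Lars2 mRNA cannot be told apart. Another probe annotated to the 28S RNA differed by 0.98, and the 18S RNA probes by 0.23 and 0.27. Without Lars2 the mitochondrial median was -0.18.

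The same amino acid could be compared between the compartments in 15 pairings, in which Eprs and Fars2 each serve in 2. The mitochondrial difference was below the cytosolic one in 12 of 15, with a median gap of -0.13. The widest gaps were for tryptophan (Wars2 against Wars, -0.56), methionine (Mars2 against Mars, -0.51), asparagine (Nars2 against Nars, -0.44) and serine (Sars2 against Sars, -0.41). The exceptions were leucine at 0.08, with the Lars2 probe, arginine at 0.08 and the alpha subunit of the phenylalanine enzyme at 0.21.

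The gap between the classes was seen on both knockout arrays. Relative to the wild-type mean of each gene, the mitochondrial median was -0.06 and -0.26 on the knockout arrays, while the cytosolic median was 0.09 and -0.11 on the same arrays. On the wild-type arrays, which centre on 0 by construction, the mitochondrial medians were 0.10 and -0.09, and the cytosolic medians 0.11 and -0.11. The mitochondrial genes were dimmer as a class, so genes of like signal were also set side by side. Among tested genes in the third quartile of level, the median difference was -0.17 for 6 mitochondrial genes, 0.07 for 6 cytosolic genes and -0.01 for all 4145 genes. In the second quartile it was -0.22 for 5 mitochondrial genes, -0.16 for the 1 cytosolic gene and 0.01 for all genes. In the brightest quartile the order was the other way, at 0.08 for 2 mitochondrial genes, -0.02 for 13 cytosolic genes and 0.04 for all genes. These 2 genes were Tars2 at -0.11 and Lars2 at 0.27. The reversed order thus rests on the Lars2 probe, which is also annotated to a ribosomal RNA. Tars2 alone lay below the cytosolic median of -0.02. In the dimmest quartile the 1 mitochondrial gene was at 0.01, against 0.11 for all genes. The part of signal level in the class gap was not tested further. The cytosolic minus mitochondrial gap in medians was 0.18, and lay between 0.13 and 0.18 over the alternatives run. The part of the macrophage, mast cell and dendritic cell markers, most but not all of them lower in the knockout, was not tested.

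The arrays that share a number in the labels moved together in this family, by more than the median difference of -0.04 between the genotypes. The knockout array 1 stood above the knockout array 2 for 31 of 34 members, by a median of 0.15, and the wild-type array 1 stood above the wild-type array 2 for 29 of 34, by a median of 0.21. Array 1 was the higher one in both genotypes for 26 of 34 members (76.5%), against 31.1% of all tested genes, and the lower one in both for 0 of 34, against 23.2%. Over all tested genes the medians were 0.04 in the knockout and 0.01 in wild type. For the 14 mitochondrial members they were 0.17 and 0.19, about the size of that class's median genotype difference of -0.17. The labels do not say what a shared number stands for. Lars2 was an exception at -0.35 in the knockout and 0.02 in wild type, as did Sars at 0.09 and -0.19.

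**Figure D3:**
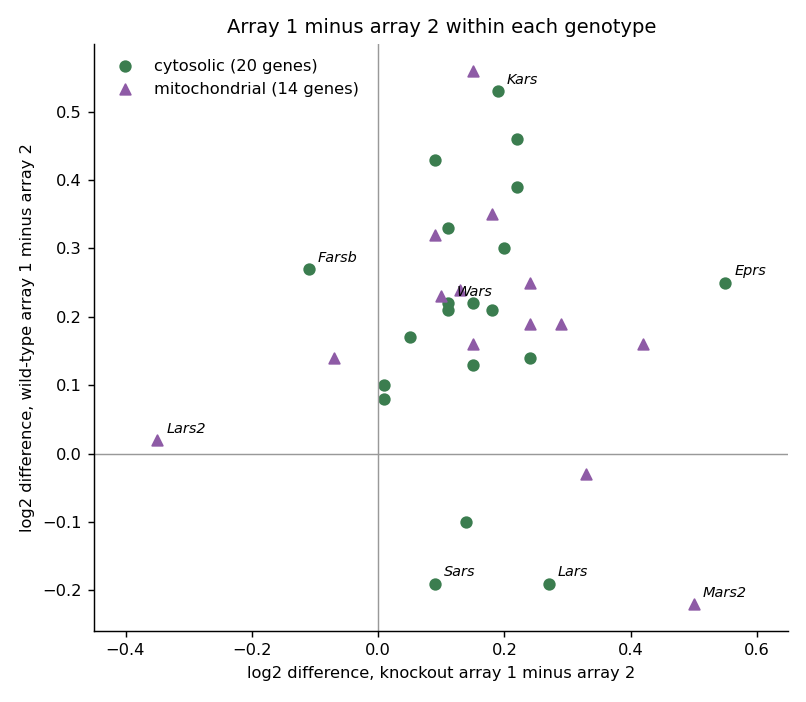
For each synthetase, the log2 difference of array 1 minus array 2 in the knockout (horizontal) and in wild type (vertical); circles are cytosolic and triangles mitochondrial genes. Of 34 genes, 26 lie at the upper right, where array 1 was higher in both genotypes, and 0 in the lower left.

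Proteins that work beside the synthetases were compared from lists. Of 8 genes for scaffolds, a tRNA exporter and subunits of elongation factor 1, 7 were higher in the knockout and 0 passed the test, with a median of 0.08, which was -0.04 under spike-in scaling and 0.01 without the first knockout array. Eef1a1, which carries charged tRNA to the ribosome, read 7.87 and 7.95 in the knockout, against 7.28 and 7.34 in wild type. The groups were well apart at 0.60 ± 0.12 (SE, n = 2 each, unadjusted p = 0.00616, limma adjusted p = 0.254). The nucleotide exchange subunits Eef1b2, Eef1d and Eef1g were at 0.23, 0.09 and 0.27, all apart from wild type. In all, 4 of the 8 genes were higher without overlap, against 27.8% of all tested genes. The scaffolds Aimp1, Aimp2 and Eef1e1 were at 0.07, -0.05 and 0.04, and the nuclear tRNA exporter Xpot at 0.04, all overlapping.

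Of 6 genes of tRNA editing and selenocysteine charging, 4 were lower in the knockout and 0 passed the test. Dtd2, a deacylase of wrongly charged tRNA, was at -0.46 ± 0.15 (SE, unadjusted p = 0.0351, limma adjusted p = 0.336). Aarsd1 at -0.32, Dtd1 at -0.27 and Sepsecs at -0.12 were lower too, while Pstk at 0.19 and Prorsd1 at 0.16 were higher.

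Other factors linked to mitochondrial translation, tRNA-modifying enzymes among them, were also mostly lower in the knockout. Of 16 such factors, 14 were lower in the knockout, 8 of them without overlap (against 20.3% of all tested genes), and 0 passed the test. Their median was -0.16, but -0.06 without the second knockout array and -0.28 under spike-in scaling. Gatb is a subunit of the enzyme that makes glutaminyl-tRNA in mitochondria, in place of a separate glutaminyl-tRNA synthetase. Gatb read -0.08 and -0.34 in the knockout, against 0.38 and 0.16 in wild type. Its difference was -0.48 ± 0.16 (SE, n = 2 each, unadjusted p = 0.0386, limma adjusted p = 0.343). The initiation factors Mtif2 and Mtif3 were at -0.27 and -0.25, and the elongation factor Tsfm at -0.25.

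The integrated stress response genes, many of them Atf4 targets, were mostly higher in the knockout. Of 29 tested genes, 21 were higher in the knockout and 8 lower, 12 apart above and 1 apart below, against 27.8% and 20.3% of all tested genes, and 0 passed the test. The median was 0.25, but 0.32 on the knockout array 1 and 0.04 on the knockout array 2, against 0.01 and -0.01 in wild type. Nupr1, a stress-induced chromatin protein, was at 0.59 ± 0.19 (SE, unadjusted p = 0.0306, limma adjusted p = 0.328). Stc2, a secreted glycoprotein, was at 0.81 ± 0.33, and Pck2, the mitochondrial PEP carboxykinase, at 0.62 ± 0.24. Atf3 was at -1.64 ± 0.67, with 1.2 and 1.35 in the knockout, against 1.94 and 3.88 in wild type. Atf4 itself was at -0.17 ± 0.21. The 4 eIF2 alpha kinases, which start the response, stayed near wild type, with Eif2ak4 at -0.05, Eif2ak3 at 0.08, Eif2ak1 at 0.09 and Eif2ak2 at 0.19.

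**Figure D4:**
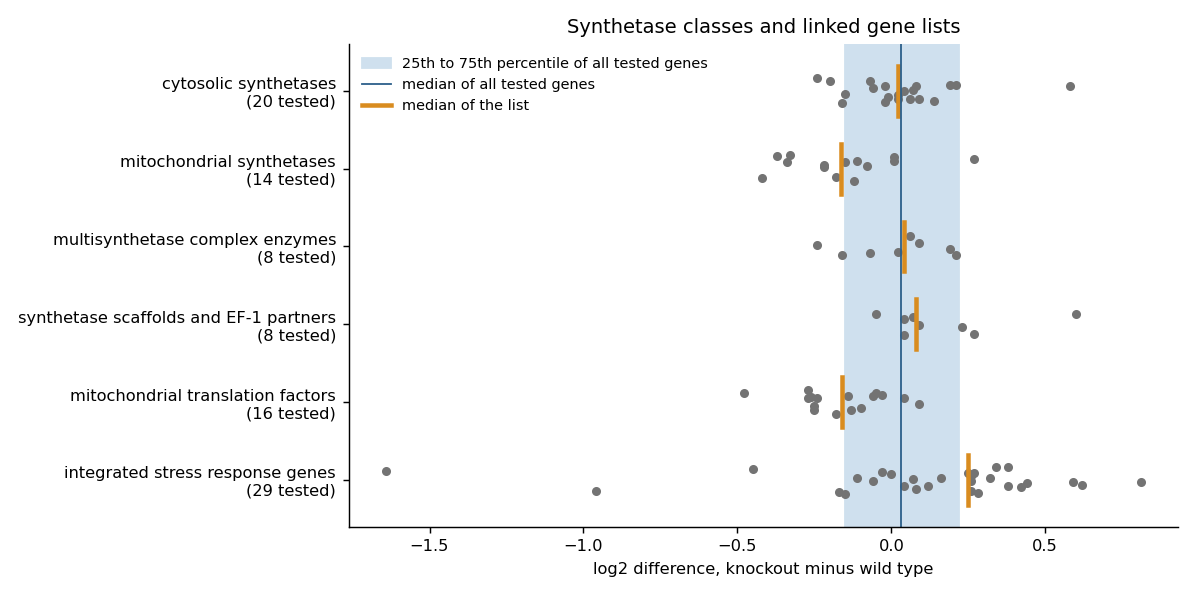
Log2 difference, knockout minus wild type, of every tested gene (points) in the synthetase classes and linked lists, with list medians in orange and the 25th to 75th percentile of all tested genes (-0.15 to 0.22) shaded. The medians of the mitochondrial synthetases (-0.17) and mitochondrial translation factors (-0.16) lie left of 0, that of the integrated stress response genes (0.25) right of it.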

How the data were processed

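Intensity values are the processed signals of 1-colour Agilent arrays (design 014868), deposited as scanner output of Feature Extraction 10.5.1.1 per the file headers, background-subtracted by the scanner software. The log2 values that the authors deposited beside them equal log2 of these signals plus a constant per array within 0.01 for 99.8% of 41150 probes, and served as an alternative. No signal was saturated.

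From the intensities, control spots and outlier flags were left out, log2 was taken, and each array's 75th percentile subtracted. A gene was read from its probe with the highest mean and tested if 1 genotype or both had it well above background on each of their arrays (16579 genes). Genotypes were compared over 2 and 2 arrays with limma 3.58.1 (R 4.3.3, lmFit and eBayes, two-sided) and Benjamini-Hochberg adjustment at 0.05. The number of arrays limits the precision. All arrays share 1 slide and scan. The code was tested on simulated data.

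Members and lists were chosen with earlier results of these data known. Every member is named. Of each other list up to 4 genes with the smallest p are named, and all genes of lists of up to 8. Values per array go to members under an unadjusted p of 0.05 and to the 3 largest differences each way. Genes shown beyond that rule were picked after their values were seen. These are the values per array of Kars, Farsa, Rars, Eprs, Sars2, Wars2, Gatb, Eef1a1 and Atf3. They also include the differences of Atf4, Adgre1, Csf1r and Cd68. Lists cover the multisynthetase complex, enzyme classes, scaffolds, editing, mitochondrial translation, the integrated stress response, eIF2 alpha kinases, interferon gamma genes and cell markers. Some genes of these lists, marker sums that include them and some sequence are not reported here. Alternatives were normexp with offset 50, quantile normalization, spike-in scaling, other probe filters, probe means, leaving out arrays, and a replicate block. Same-numbered arrays deviated together with a correlation of 0.175 over all tested genes, in 2 pairs, and the labels give no pairing.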

Additional observations from a re-analysis of the deposited data

How the results depend on the processing

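No synthetase gene passed an adjusted p of 0.05 under any of 12 alternatives, and the smallest adjusted p of a member was 0.183 (Wars without wild type replicate 1). Wars lay between 0.46 and 0.69, with an adjusted p of 0.183 to 0.782. Of 408 member values, 356 kept their sign and 52 did not. The 13 members of constant sign were Aars, Farsa, Farsb, Lars, Rars, Wars, Aars2, Cars2, Ears2, Lars2, Mars2, Nars2 and Sars2. These alternatives read the main probe or the mean of all probes, not other probes singly. Of 18 members with another tested probe, 11 had every tested probe on the same side of 0. The rest were Eprs, Iars, Lars, Qars, Tars, Cars2 and Iars2. Lars and Cars2 thus kept their sign above, although single probes read -0.07 and 0.03. Genes passing the test over the whole array numbered 0, but 5 with normexp, 1 with the authors' values and 118 with spike-in scaling. The cause was not tested. Signs turned with spike-in scaling for Dars and Tars (-0.10 each), Eprs (-0.06), Hars (-0.08), Mars (-0.03), Nars (-0.05), Sars (-0.04), Fars2 and Wars2 (-0.11 each). They turned with normexp for Dars (-0.07), Gars (0.02) and Wars2 (-0.06), with quantile normalization for Dars (-0.01) and Tars (-0.03), and with the authors' values for Cars (0.00), Gars (0.01) and Yars (0.00). With the mean of all probes they turned for Eprs (-0.03), Iars (0.21), Qars (-0.03), Tars (-0.04) and Iars2 (0.25). Leaving out 1 array at a time turned the sign of 19 members, whose ranges were Cars -0.12 to 0.08, Dars -0.05 to 0.09, Eprs -0.22 to 0.34, Fars2 -0.15 to 0.17, Gars -0.16 to 0.14, Hars 0.00 to 0.08, Iars -0.23 to 0.10, Kars -0.51 to 0.02, Mars -0.13 to 0.30, Nars -0.01 to 0.16, Pars2 -0.50 to 0.06, Rars2 -0.20 to 0.04, Sars -0.02 to 0.17, Tars -0.10 to 0.13, Tars2 -0.24 to 0.02, Vars -0.29 to 0.17, Wars2 -0.15 to 0.18, Yars -0.21 to 0.17 and Yars2 -0.26 to 0.03. The median of all 34 members ranged from -0.19 (without wild type replicate 2) to 0.07, the cytosolic median from -0.11 to 0.10, the mitochondrial median from -0.26 to -0.05 and that of the integrated stress response genes from 0.04 (without knockout replicate 1) to 0.32. With the replicate number as a block, which the labels do not give as a pairing, Wars stayed at 0.58 with an adjusted p of 0.257, and 0 genes passed. With 2 arrays per genotype, differences under about 0.32 to 0.64 lay within the intervals.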
